A study of Homo sapiens with 10 samples.

Results

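The S100 genes encode small calcium-binding proteins, and 10 of them were examined in RNA sequencing libraries of 2 human lung cancer cell lines: S100A2, S100A3, S100A4, S100A6, S100A8, S100A9, S100A10, S100A11, S100A16 and S100P. They were taken by gene symbol from the 46427 genes of the expression table, in all 10 libraries, and every one of the 10 symbols was found. S100 proteins carry a pair of EF hands, the helix-loop-helix fold that holds calcium, and most work as dimers that change shape on binding calcium and then dock onto a partner such as an annexin, myosin or p53. Inside the cell they act on the cytoskeleton, the membrane and the cell cycle, and several are also released and bind the receptors AGER (RAGE) and TLR4. In tumors of the lung and other epithelia they are best known from work on migration, metastasis and inflammation.

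H460 and A549 are established human lung cancer lines. H460 cells in two-dimensional (2D) culture gave 3 parental libraries. Drug-resistant H460 cells were those that survived 3 days of drug and 3 days in fresh medium, and they gave 1 library after 4 µM cisplatin (CR), 2 after 5 nM paclitaxel (PR) and 1 after 0.5 µM doxorubicin (DR). Tumor spheroid (TS) cells, grown in suspension in medium with added growth factors and named CTC in the sample labels, gave 1 library of H460 and 1 of A549, beside 1 library of A549 in 2D culture. A549 cells that survived cisplatin were not analysed here. The drug-resistant cells are short-term survivors of a mixed culture rather than clones selected over a long time. No label says that replicates came from separate cultures, so the p-values measure only the spread between these libraries, which may be technical. In bulk RNA, fewer cells that carry a transcript and less of it in each cell cannot be told apart.

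Each library had between 59499787 and 89541774 reads on genes. The replicates differed by far more than counting error, with a chi-square per gene between 80.7 and 338. The epithelial keratins KRT8 and KRT18 were high in every library, between 190 and 3866 FPKM (fragments per kilobase of transcript, scaled to library size), whereas the adhesion genes EPCAM and CDH1 had at most 0.114 FPKM in every H460 library. Of 5 markers of alveolar type 2 cells, 0 reached 1 FPKM in any group. Of 8 myeloid markers only CD14 did.

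In the RefSeq genes of GRCh38.p14, 9 of the 10 genes lie on chromosome 1 in band 1q21.3 and S100P lies on chromosome 4. S100A6, S100A4, S100A3 and S100A2 sit within 31.2 kb of each other, and S100A10 to S100A16 span 1630 kb. The windows from 250 bases before to 50 bases after the start site are shown for 5 genes: S100A2, S100A3, S100A4 and S100A6, which are neighbors that rose in drug-resistant cells, and S100P, the 1 gene of 9 tested whose TS effect differed between the lines by edgeR. Capitals mark matches on either strand to TGANTCA, the site of AP-1, to TATAAA, the TATA box, or to GGGCGG, the GC box.
S100A3, chr1:153549209-153549508, minus strand: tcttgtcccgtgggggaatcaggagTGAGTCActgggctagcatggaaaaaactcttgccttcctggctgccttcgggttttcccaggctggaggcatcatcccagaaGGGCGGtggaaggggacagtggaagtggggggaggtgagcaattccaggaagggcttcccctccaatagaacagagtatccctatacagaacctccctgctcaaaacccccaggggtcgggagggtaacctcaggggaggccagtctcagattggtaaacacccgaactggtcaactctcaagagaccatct
S100A2, chr1:153565795-153566094, minus strand: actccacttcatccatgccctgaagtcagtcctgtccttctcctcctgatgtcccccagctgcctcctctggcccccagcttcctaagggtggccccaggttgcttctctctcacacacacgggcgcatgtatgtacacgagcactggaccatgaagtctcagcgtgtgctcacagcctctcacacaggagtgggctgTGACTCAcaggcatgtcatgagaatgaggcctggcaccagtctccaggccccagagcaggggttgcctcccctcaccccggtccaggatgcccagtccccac
S100A4, chr1:153545757-153546056, minus strand: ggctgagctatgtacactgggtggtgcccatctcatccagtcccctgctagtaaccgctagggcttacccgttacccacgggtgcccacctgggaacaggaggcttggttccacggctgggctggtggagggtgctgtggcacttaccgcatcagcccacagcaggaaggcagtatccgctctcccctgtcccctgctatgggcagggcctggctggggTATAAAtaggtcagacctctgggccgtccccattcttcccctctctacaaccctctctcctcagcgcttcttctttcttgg
S100A6, chr1:153535942-153536241, minus strand: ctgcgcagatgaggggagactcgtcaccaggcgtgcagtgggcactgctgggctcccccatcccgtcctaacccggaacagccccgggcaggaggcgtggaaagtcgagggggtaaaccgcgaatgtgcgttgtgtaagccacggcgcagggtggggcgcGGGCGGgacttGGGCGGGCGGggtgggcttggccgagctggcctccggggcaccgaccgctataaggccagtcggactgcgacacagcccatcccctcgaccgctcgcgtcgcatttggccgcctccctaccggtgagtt
S100P, chr4:6693628-6693927, plus strand: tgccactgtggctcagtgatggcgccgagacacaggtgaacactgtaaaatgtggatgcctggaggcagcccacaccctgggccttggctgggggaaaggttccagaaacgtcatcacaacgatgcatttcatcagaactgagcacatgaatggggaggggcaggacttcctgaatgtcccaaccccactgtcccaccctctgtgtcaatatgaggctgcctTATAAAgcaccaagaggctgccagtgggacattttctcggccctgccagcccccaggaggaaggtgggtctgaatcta
The windows of S100A3 and S100A2 each held an AP-1 match, beginning 225 and 52 bases before the start site, and such a match was present in 7.71% of 35116 RefSeq windows of this length. S100A4 and S100P each held a TATA box, 31 and 28 bases before the start, as did 11.5% of all windows. S100A6 held 3 GC boxes, of which the second and the third overlap, and S100A3 held 1. A GC box was found in 45% of all windows. S100A2 has a second start site in RefSeq, whose window held none of the 3 motifs. A match is a stretch of letters and was not tested for binding.

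The 10 genes fell into levels that spanned several orders of magnitude. FPKM is scaled to transcript length, so levels can be set side by side between genes. S100A6 (calcyclin) was the most abundant in every library except DR, with 865 to 3257 FPKM and a rank between 14 and 75 among all genes of a library. S100A4, which binds non-muscle myosin and is known from metastasis, had 236 to 3127 FPKM and ranks between 13 and 215. In DR it was just above S100A6 (3127 against 3101 FPKM), in H460 TS it was below S100A11 (277 against 506), and in A549 2D (236) it was below both S100A11 (467) and S100A10 (344). S100A11 and S100A10, the partners of annexins, lay between 444 and 868 FPKM and between 274 and 563 FPKM.

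The other genes were lower. S100P had 73.8 to 119 FPKM in every library except A549 2D, where it had 7.53. S100A16 had 9.41 to 18.1 FPKM in H460 and 79.1 and 128 in A549. S100A3 and S100A2 ranged from 1.41 to 104 FPKM and from 1.66 to 17.9 FPKM. S100A8 and S100A9 never passed 1.00 and 3.11 FPKM. Within the parental libraries, S100A4 (784 ± 294 FPKM, SD, n = 3) and S100A11 (489 ± 43.2 FPKM) differed in mean by about the SD of S100A4, and S100A4 was the higher in each of the 3 libraries, from 566 against 493 to 1119 against 530.

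Together the 10 genes took 0.640% to 0.831% of all FPKM in the parental libraries, 1.66% in CR, 1.03% and 1.56% in PR and 1.77% in DR. TS culture of H460 gave 0.454%, and A549 gave 0.579% in 2D and 0.953% as spheroids. Every drug-resistant library was thus above every parental library, and H460 TS was below all of them. S100A4 and S100A6 made up between 56.5% and 81.2% of these shares.

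**Figure D1:**
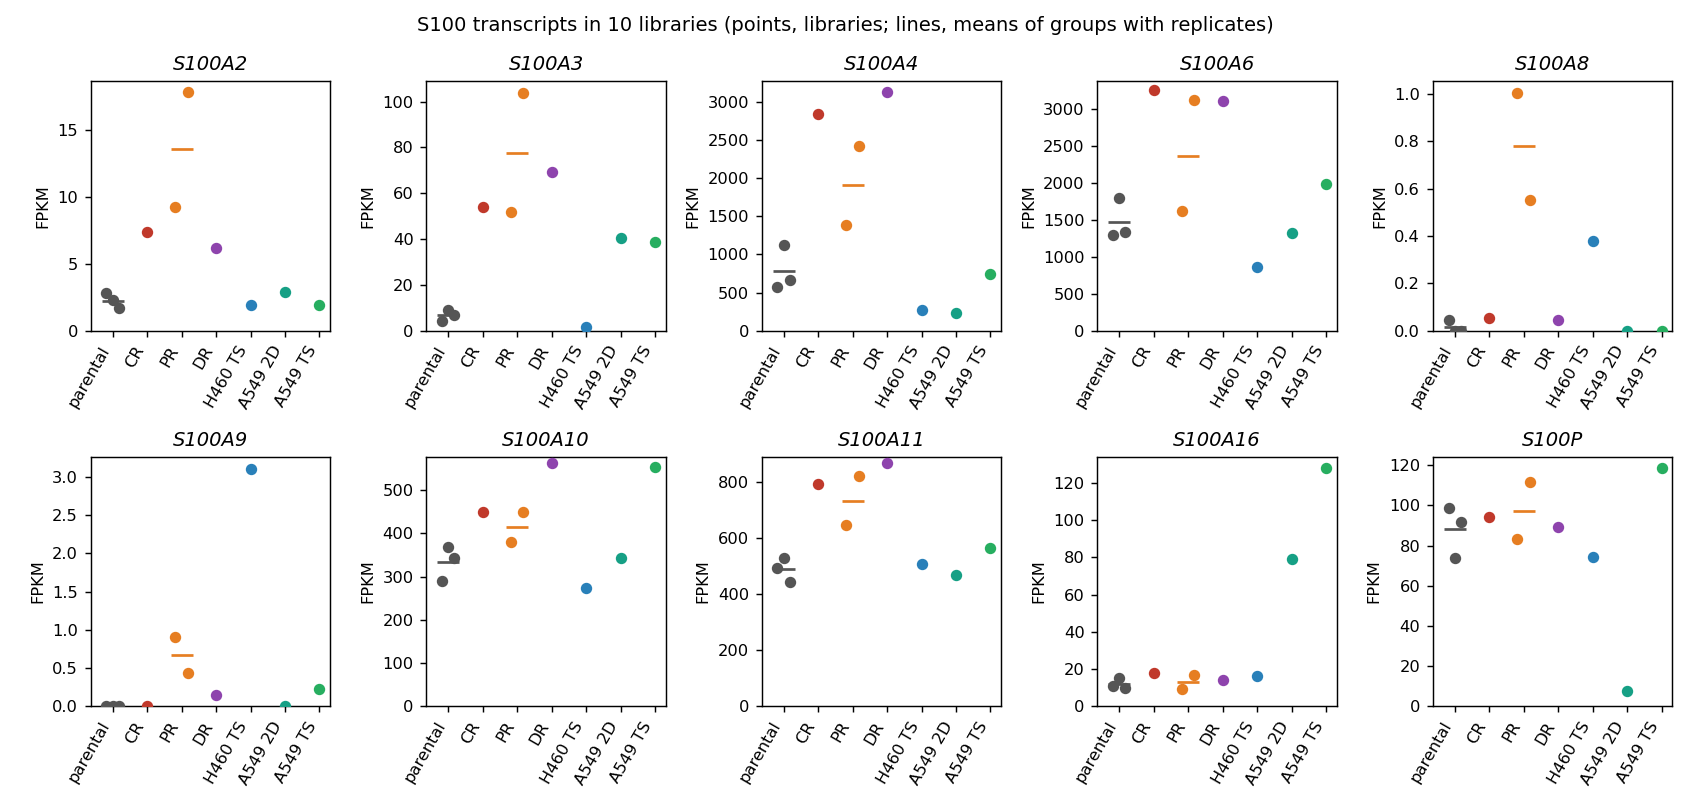
FPKM (y axis, linear, from 0, a separate scale for each gene) of the 10 S100 genes in each library (points) by group (x axis), with a line at the mean of the parental (n = 3) and PR (n = 2) groups. S100A2 and S100A3 sit higher in all 4 drug-resistant libraries than in the 3 parental ones, S100A9 is highest in H460 TS at 3.11 FPKM, and S100P is lowest in A549 2D at 7.53 FPKM.

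To examine drug resistance, the 4 drug-resistant libraries were compared with the 3 parental libraries by edgeR's quasi-likelihood test on read counts, with Benjamini-Hochberg adjustment over 18398 genes. S100A3, S100A2, S100A4, S100A6 and S100A11 rose. S100A10, S100A16 and S100P did not pass the test, and S100A8 and S100A9 had too few reads to be tested. That is 5 of 8 tested S100 genes called, where 33.8% of all genes tested were called, and all 5 were higher, where 18.5% of all genes were higher. 0 were lower, where 15.3% of all genes were. An unadjusted p under 0.05 also gave 5 higher and 0 lower, as did DESeq2 and limma. The median log2 fold change was 0.69 for the 8 genes and 0.06 for all genes. The count was 3 when the filter on low counts was dropped, when the form of the library name was a term, and in each of 6 fits that left out 1 library, and it stayed at 5 without PR replicate 1.

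S100A3, a cysteine-rich protein known from the hair cuticle, showed the largest change. It had 4.09, 9.26 and 6.69 FPKM in the parental libraries, 53.9 in CR, 51.6 and 104 in PR and 69.2 in DR. The groups were far apart, with the lowest drug-resistant library at 51.6 and the highest parental one at 9.26. The log2 fold change was 3.26 ± 0.33 (SE), or 9.59-fold (adjusted p = 0.000217, edgeR), and it passed in all 15 settings.

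S100A2, which binds p53 and is usually described in basal epithelial cells, was much less abundant. Its parental libraries had 2.79, 2.26 and 1.66 FPKM, against 7.38 in CR, 9.28 and 17.9 in PR and 6.22 in DR. The groups did not overlap, and PR replicate 2 was the highest library. It rose by 2.04 ± 0.35 on the log2 scale, or 4.10-fold (adjusted p = 0.0021, edgeR), and the call also passed in all 15 settings.

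S100A4 had 566, 1119 and 667 FPKM in the parental libraries, 2845 in CR, 1389 and 2423 in PR and 3127 in DR. The lowest drug-resistant library, PR replicate 1, lay just above the highest parental one. S100A4 rose by 1.56 ± 0.34 on the log2 scale, or 2.95-fold (adjusted p = 0.0066, edgeR), and the call passed in all 15 settings.

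S100A6, which binds CACYBP and several annexins, had 1298, 1791 and 1338 FPKM in the parental libraries, 3257 in CR, 1623 and 3116 in PR and 3101 in DR. CR, PR replicate 2 and DR were alike, whereas PR replicate 1 lay within the parental range, so the groups overlapped. The log2 fold change was 0.81 ± 0.28, or 1.76-fold (adjusted p = 0.0463, edgeR). It passed in 7 of 15 settings, with an adjusted p between 0.00954 and 0.189.

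The submitters' descriptions name the libraries in 2 forms, with and without a hyphen right after the leading letters, and this form moved with the S100A6 values. CR, DR, PR replicate 2 and parental replicate 2 have this hyphen. Within the form without this hyphen, PR replicate 1 differed from parental replicates 1 and 3 by a log2 CPM difference of 0.06 for S100A6, 0.23 for S100A11, 0.93 for S100A4, 1.84 for S100A2 and 3.05 for S100A3. Within the hyphenated form, the 3 other drug-resistant libraries differed from parental replicate 2 by 0.78, 0.61, 1.29, 2.01 and 2.94. With the form as a term in the fit, S100A4 (1.13, adjusted p = 0.0127), S100A2 (1.99, 0.00965) and S100A3 (3.00, 0.000863) still passed, while S100A6 (0.45, 0.189) and S100A11 (0.44, 0.136) did not. What the form stands for is not stated, and its part in the result was not tested further. The name of PR replicate 1 alone also ends in "exp". The meaning of this ending is not stated either, and its part was not tested.

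S100A11 and S100A10 bind annexins at membranes, S100A11 mainly annexin A1 and S100A10 annexin A2, with which it forms a tetramer on the cell surface. S100A11 had 493, 530 and 444 FPKM in the parental libraries, 792 in CR, 646 and 820 in PR and 868 in DR. All 4 drug-resistant libraries were above the parental ones. S100A11 rose by 0.57 ± 0.19 on the log2 scale, or 1.49-fold (adjusted p = 0.0432, edgeR), and it passed in 7 of 15 settings. S100A11 has processed pseudogenes, and how reads shared with them were counted is not stated in the sources used here.

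S100A10 had 289, 368 and 344 FPKM in the parental libraries, 450 in CR, 380 and 450 in PR and 563 in DR. The drug-resistant libraries were slightly above the parental ones on this scale. The log2 fold change was 0.36 ± 0.21 (adjusted p = 0.211, edgeR), with a 95% interval from -0.11 to 0.83, and it passed in 0 of 15 settings. The ratio of S100A10 to ANXA2 in FPKM lay between 0.578 and 0.771 in all 8 H460 libraries.

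S100A16, a widely expressed member, and S100P, which binds ezrin and is a ligand of AGER, overlapped between the groups. S100A16 had 11.0, 15.4 and 9.65 FPKM in the parental libraries, 18.1 in CR, 9.41 and 17.0 in PR and 13.9 in DR, and its log2 fold change was 0.21 ± 0.25 (adjusted p = 0.547, edgeR). S100P had 98.5, 73.8 and 92.0 FPKM in the parental libraries, 94.0 in CR, 83.3 and 112 in PR and 89.4 in DR. Its log2 fold change was -0.02 ± 0.19 (adjusted p = 0.941, edgeR), and the 95% interval from -0.43 to 0.39 leaves out a change of 2-fold in either direction.

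On the log2 CPM scale, 4 of the 10 genes (S100A2, S100A3, S100A4 and S100A11) had all 4 drug-resistant libraries above all 3 parental ones, a pattern that 20.9% of 22464 genes showed.

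**Figure D2:**
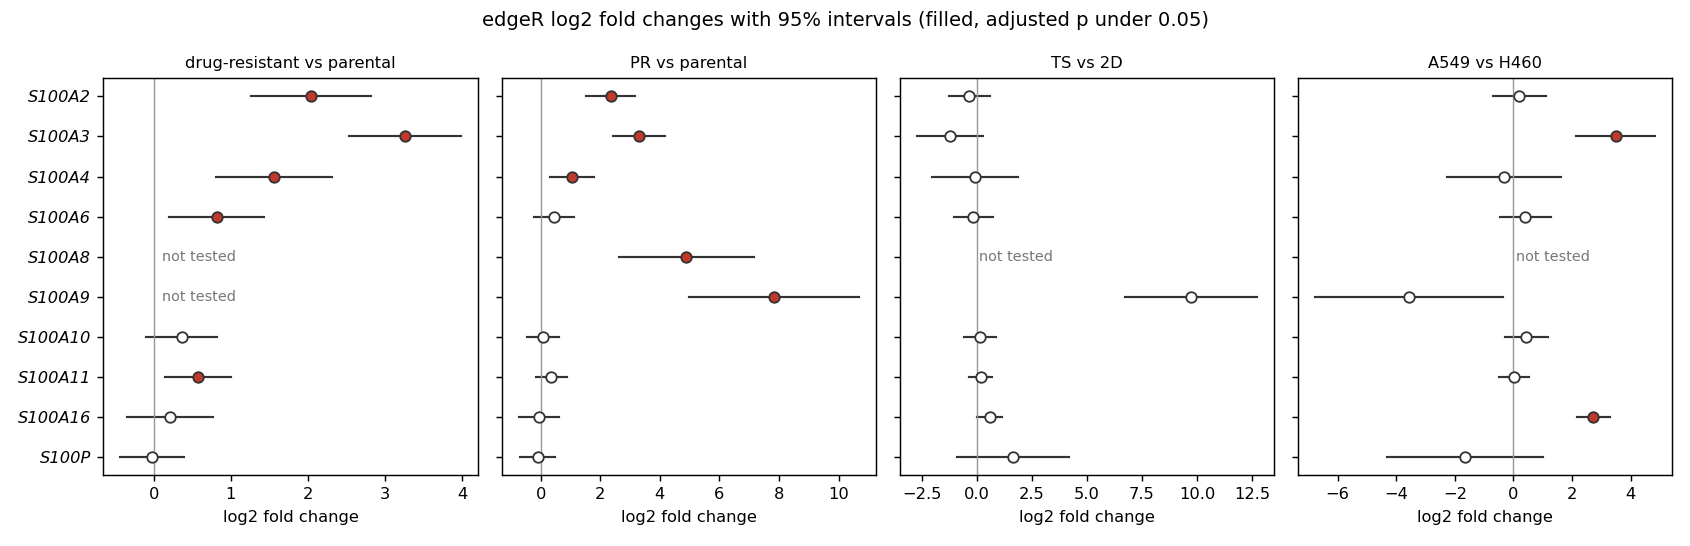
Log2 fold changes (x axis) of the 10 S100 genes (y axis) from the edgeR fits, 1 panel for each comparison, with 95% intervals as bars and filled points where the adjusted p is under 0.05. In the drug-resistant panel the 5 filled points lie between 0.57 and 3.26, and no filled point lies below 0. Axes differ between panels.

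The 3 drugs were set side by side against the same parental libraries, with which they share their control. PR, the only drug with 2 libraries, was tested on its own over 19430 genes, and S100A3, S100A2, S100A4, S100A8 and S100A9 rose. That is 5 of 10 S100 genes higher, against 17.5% of all genes tested, and 0 lower, against 10.6%. The unadjusted p and DESeq2 gave the same counts, and limma, which tested 8 of the genes, gave 3 higher and 0 lower. S100A8 and S100A9, which limma left out, had at most 2 reads in a parental library. They passed the filter on low counts of the edgeR fit only through their PR reads. Only a higher call was open to them, so the share of 5 of 10 follows in part from the filter. S100A3 rose by 3.30 ± 0.39 on the log2 scale (adjusted p = 0.00148, edgeR) and S100A2 by 2.35 ± 0.36 (adjusted p = 0.0033). S100A4 rose by 1.04 ± 0.33 (adjusted p = 0.0439, edgeR), in 9 of 14 settings. S100A4 lost its call in each fit without 1 PR library or without parental replicate 1 or 3, with an adjusted p of 0.404 without PR replicate 2. Without PR replicate 2, S100A2 came to an adjusted p of 0.0523. S100A6 had a log2 fold change of 0.44 ± 0.30 (adjusted p = 0.292, edgeR) and S100A11 of 0.35 ± 0.23 (adjusted p = 0.278).

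CR and DR had 1 library each, so their differences have no replicate check. In CR, 4 of 10 S100 genes were more than 2-fold higher in log2 CPM than the parental mean, against 19.2% of 22464 genes, and 0 were more than 2-fold lower, against 9.7%. These were S100A3 (a log2 CPM difference of 3.11), S100A4 (1.95), S100A2 (1.76) and S100A6 (1.18). In DR, 5 of 10 were more than 2-fold higher, against 23.2% of genes, and 0 were lower, against 8.03%. They were S100A3 (3.39), S100A9 (2.23, from 9 reads), S100A4 (2.01), S100A2 (1.44) and S100A6 (1.03).

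The same differences in the 2 PR libraries were 2.82 and 3.73 for S100A3, 1.86 and 2.71 for S100A2, 0.68 and 1.39 for S100A4, and -0.05 and 0.79 for S100A6. On this scale S100A2 was highest in the PR libraries, and S100A4 and S100A6 were highest in CR and DR. These differences between drugs were not tested, since CR and DR have 1 library each. S100A10 differed by 0.46 in CR, -0.01 and 0.14 in PR and 0.71 in DR.

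S100A8 and S100A9 form calprotectin, the heterodimer that neutrophils and monocytes carry and release, which binds TLR4 and AGER. Both were close to the detection limit. S100A8 had 2, 0 and 0 reads in the parental libraries, 2 in CR, 35 and 16 in PR, 2 in DR and 12 in H460 TS. S100A9 had 0 reads in each parental library and in CR, 44 and 17 in PR, 9 in DR and 128 in H460 TS.

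Reads were thus found mainly in the PR and H460 TS libraries. Against a floor of 3 reads per parental library, S100A9 was at least 14.03-fold and 6.74-fold higher in the PR libraries, at least 2.37-fold higher in DR and at least 48.6-fold higher in H460 TS. For S100A8, the ratio of CPM to the pooled parental libraries was 50.3 (95% counting interval 12.9 to 432) and 28.6 (6.73 to 256) in PR and 20.6 (4.58 to 189) in H460 TS. In CR it was 2.67 (0.194 to 36.9) and in DR 2.38 (0.172 to 32.8), where no difference was detectable at this depth. These intervals and floors cover counting error only. The intervals take each read as independent, but in every library fewer genes had 1 read than 2. They may therefore be too narrow.

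In the PR fit S100A9 had an adjusted p of 0.00512 and S100A8 of 0.00807 (edgeR). Without PR replicate 1 both missed the threshold, with adjusted p of 0.076 for S100A9 and 0.133 for S100A8, and without PR replicate 2 S100A8 missed it with 0.0854. The RefSeq span of S100A8 overlaps S100A7A on the other strand by 6064 bases, and the strand of the reads is not stated. The 8 myeloid markers summed to 2.92 to 9.49 FPKM in the parental libraries, 11.8 to 17.7 in the drug-resistant ones and 8.72 in H460 TS, nearly all of it CD14. ITGAM, an integrin of myeloid cells, had 0 reads in the parental libraries, 14 in CR, 82 and 125 in PR, 39 in DR and 13 in H460 TS, with 0.243 and 0.399 FPKM in PR. It was called higher in drug-resistant cells (adjusted p = 0.00294, edgeR) and in PR (0.00187), and SPI1, with 15 and 18 reads in PR and 0 in the parental libraries, in PR (0.00717). These 2 markers thus rose in the same PR libraries as S100A8 and S100A9. In A549, ITGAM had more reads, 204 in 2D and 129 in TS, where S100A8 had 0 and S100A9 had 0 and 11. TYROBP had 7 reads in parental replicate 1 and 0 in every other library. CD14 did not pass in either comparison (adjusted p = 0.0716 and 0.185, edgeR). PTPRC, CSF3R and MPO were at 0 in the parental libraries and at most 0.157 FPKM in the drug-resistant ones, and FCN1 was at 0 in every library. PTPRC was highest in DR, with 85 reads against 10 and 18 in PR. CSF3R and MPO had 12 and 17 reads in DR and 0 in PR. In PR, markers of other cell types were called higher as well, at low levels. They were IVL of keratinocytes (0.267 and 0.142 FPKM), PECAM1 (0.0280 and 0.0312) and VWF (0.0395 and 0.0589) of endothelium, and NKX2-1 of lung epithelium (0.139 and 0.106). In PR, 2 of 3 tested myeloid markers were higher, where 17.5% of all genes were. So were 1 of 1 tested for keratinocytes, 2 of 2 for endothelium and 1 of 2 for alveolar cells. The called markers ITGAM, SPI1, IVL, PECAM1, VWF and NKX2-1 had at most 9 reads in any parental library. They passed the filter on low counts only through their PR reads. These shares thus follow in part from the filter and do not show that the marker sets rose. The other 5 keratinocyte, 1 endothelial and 3 alveolar markers had too few reads to be tested. NAPSA, of alveolar cells, did not pass (adjusted p = 0.0684, edgeR). The part of other cells in the S100A8 and S100A9 reads was not tested.

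TS culture was compared with 2D culture in 6 libraries and 18372 genes, with a term for the line. By edgeR, 0 of 9 tested S100 genes passed, where 0.191% of all genes did (0.147% higher and 0.0435% lower), and S100A8 was not tested. At an unadjusted p under 0.05 there were 2, S100A9 and S100A16, both higher. DESeq2 called 1, S100A9, and limma called 0 of 8. S100A16 had a log2 fold change of 0.59 ± 0.24 (adjusted p = 0.627, edgeR), with 16.4 FPKM in H460 TS against 9.65 to 15.4 in parental cells and 128 FPKM in A549 TS against 79.1 in A549 2D. S100A9, with 128 reads in H460 TS and 11 in A549 TS and 0 in the 4 2D libraries, had an adjusted p of 0.115 by edgeR and 0.0036 by DESeq2. In A549 TS the lower end of the exact 95% counting interval of the CPM ratio to the 2D library was 2.32. This takes the 11 reads as independent, and the bound would be lower if they are not.

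The 2 lines moved apart for several members. In H460 TS, 2 of 10 S100 genes were more than 2-fold lower than in parental cells, against 8.61% of 22464 genes, and 2 were more than 2-fold higher, S100A8 and S100A9, against 8.82%. In A549 TS, 3 were more than 2-fold higher than in A549 2D, against 16.1% of genes, and 0 were lower, against 8.27%.

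S100A3 had 1.41 FPKM in H460 TS, below all 3 parental libraries, and its log2 CPM difference from their mean was -2.14. In A549 it had 40.5 FPKM in 2D and 38.6 in TS, a difference of -0.01. S100A4 had 277 FPKM in H460 TS, again below every parental library, a difference of -1.45, against 741 in A549 TS and 236 in A549 2D, a difference of 1.70. S100A4 was therefore lower in TS than in 2D in one line and higher in the other. S100A6 showed the same split, with 865 FPKM in H460 TS (-0.76) and 1981 against 1327 in A549 (0.63). S100A10 did so on a smaller scale, with 274 FPKM in H460 TS (-0.29) and 553 against 344 in A549 (0.74). S100A11 had 506 FPKM in H460 TS (0.05) and 566 against 467 in A549 (0.33), and S100A2 had 1.90 in H460 TS (-0.19) and 1.91 against 2.89 in A549 (-0.55).

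Of the 10 genes, S100P gave the widest gap in TS difference between the lines. It had 74.4 FPKM in H460 TS, within the parental range, but 119 in A549 TS against 7.53 in A549 2D. The log2 CPM difference was -0.24 in H460 and 4.02 in A549, or 16.2-fold.

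Whether the TS effect differed between the lines was tested with an interaction term over 19941 genes, a comparison added after seeing the data. S100P was the 1 S100 gene of 9 to pass, where 0.436% of genes passed. It was higher, as were 0.341% of genes, and 0 S100 genes were lower, where 0.0953% of genes were. At an unadjusted p under 0.05, 4 S100 genes were higher and 0 lower, DESeq2 called 2 higher and 0 lower, and limma called 0 of 8. The effect was larger in A549 by 4.26 ± 0.62 on the log2 scale (adjusted p = 0.0334, edgeR), with an adjusted p of 0.144 without the filter on low counts and 0.102 by limma, and it passed in the other 8 of 10 settings. The same term was 3.18 ± 0.71 for S100A4 (adjusted p = 0.126, edgeR), 2.19 ± 0.78 for S100A3 (0.437), 1.37 ± 0.57 for S100A6 (0.563) and 1.01 ± 0.56 for S100A10 (0.787). For S100A4 the adjusted p was 0.000471 by DESeq2 and 0.0132 without parental replicate 1. Each line had 1 TS library, so the error in this fit comes from the 3 parental libraries alone, and the single libraries are assumed to vary like them.

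The 5 fibroblast markers, genes of a cell type that also carries S100A4 and S100A6, summed to 1.29 to 6.00 FPKM in the parental libraries, 6.05 to 19.6 in the drug-resistant ones and 28.3 in H460 TS. In A549 the sum was 1.88 in 2D and 1.64 in TS culture. The sum in H460 TS was nearly all LUM (26.6 FPKM), with COL1A1 at 0.0510 and PDGFRB at 1.63. In drug-resistant cells 2 of 4 tested markers rose, where 18.5% of all genes did. COL1A1, the main fibrillar collagen, rose from 0.0848 to 0.193 FPKM in the parental libraries to 0.783 in CR, 6.51 and 6.26 in PR and 1.41 in DR, or by 4.35 on the log2 scale (adjusted p = 0.00208, edgeR). DCN rose by 3.09 (adjusted p = 0.0408, edgeR), and LUM (0.98, adjusted p = 0.388) and PDGFRB (0.98, 0.0994) did not pass. In PR alone 3 of 5 rose, where 17.5% of all genes did: COL1A1 (5.07, adjusted p = 0.000496, edgeR), DCN (3.62, 0.022) and COL1A2 (0.00693), the last at 0 in the parental and TS libraries and at most 0.0419 FPKM in any other. COL1A2 passed the filter on low counts only through its PR reads, so only a higher call was open to it. COL1A1 and DCN thus rose in the same comparison as S100A4 and S100A6, and the part of fibroblast genes in these values was not tested.

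**Figure D3:**
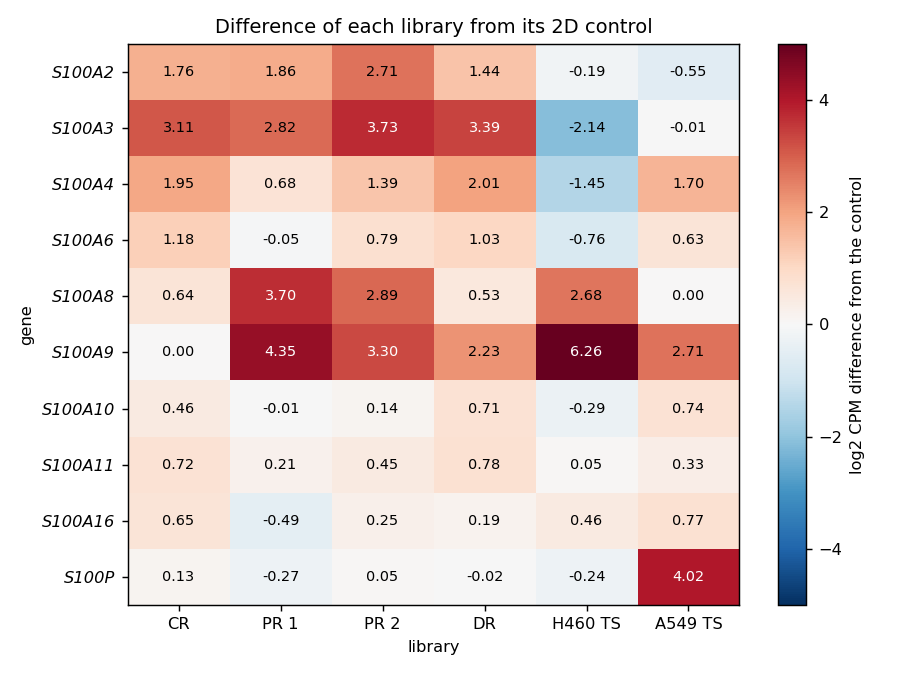
Log2 CPM difference (color) of each library (x axis) from its 2D control, the mean of the 3 parental libraries for H460 and the 1 A549 2D library for A549 TS, for the 10 S100 genes (y axis), with each value printed in its cell and the color scale ending at 5. S100A4 is at -1.45 in H460 TS and at 1.70 in A549 TS, and S100P is at 4.02 in A549 TS and near 0 in the other libraries.

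Between the lines, A549 was compared with H460 with culture as a covariate (18372 genes). For H460 this fit used the parental and TS libraries only, without the drug-resistant cells. S100A16 and S100A3 were higher in A549, 2 of 9 tested S100 genes against 14.4% of genes, and 0 were lower, against 9.42%. The unadjusted p gave 2 higher and 1 lower (S100A9), and DESeq2 and limma gave 2 higher and 0 lower. S100A16 had 79.1 and 128 FPKM in A549 and at most 18.1 in any H460 library, a log2 fold change of 2.73 ± 0.23, or 6.65-fold (adjusted p = 0.000642, edgeR). S100A3 had a log2 fold change of 3.50 ± 0.57 (adjusted p = 0.00673, edgeR), which became 2.57 without H460 TS, 2.58 without A549 TS and 4.78 without A549 2D. Both passed in all 13 settings. The S100A3 call does not extend to drug-resistant H460 cells, whose libraries had 51.6 to 104 FPKM against 40.5 and 38.6 in A549. S100A4 (-0.32, adjusted p = 0.814, edgeR) and S100P (-1.64, 0.335) did not pass, and their values depended on the libraries kept. Without H460 TS or without A549 TS, the log2 fold changes were -1.73 and -1.71 for S100A4 and -3.58 and -3.57 for S100P. The highest values with 1 library left out were 1.47 for S100A4 and 0.69 for S100P. The S100A10 to ANXA2 ratio was 0.278 and 0.345 in A549, below all 8 H460 libraries, and ANXA2 itself was higher in A549 by 1.60 on the log2 scale (adjusted p = 0.00539, edgeR).

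Of the 11 other S100 genes listed, 3 could be tested in the drug-resistant fit, and 2 rose, where 18.5% of all genes did. S100A5, which lies between S100A6 and S100A4, rose by 3.15 ± 0.88 on the log2 scale (adjusted p = 0.0205, edgeR), from 8 to 12 reads in the parental libraries to 14 in CR, 124 and 189 in PR and 36 in DR. Its annotation shares 65 bases with S100A4 on the same strand, so how reads in that stretch were assigned is uncertain. S100A13, which takes part in the release of growth factors, had 32.5, 56.3 and 37.1 FPKM in the parental libraries and 53.7 to 87.9 in the drug-resistant ones. It rose by 0.75 ± 0.26 (adjusted p = 0.0453, edgeR). S100A13 overlaps S100A1 on the other strand by 3606 bases.

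In PR cells, 3 of 5 other S100 genes tested rose, where 17.5% of all genes did: S100A5, S100A7 and S100A14. S100A7 had 24 and 37 reads in PR and 0 in each parental library, and S100A14 had 12 and 32 against 0, 0 and 2. Both passed the filter on low counts only through these PR reads and were not tested in the drug-resistant fit. Only a higher call was open to them, so the share of 3 of 5 follows in part from the filter. S100B, S100G and S100A7L2 had 0 reads in every library.

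Among 19 partners and receptors of S100 proteins, 17 were tested in the drug-resistant fit, and 4 were higher, where 18.5% of all genes were, and 4 lower, where 15.3% were, with a median log2 fold change of 0.03 against 0.06 for all genes. CACYBP, the S100A6-binding protein of a ubiquitin ligase complex, fell by 1.41 on the log2 scale (adjusted p = 0.00396, edgeR), and ANXA6, an annexin that also binds S100A6, fell by 1.15 (adjusted p = 0.00778). KCNK3, a potassium channel that S100A10 helps to carry to the membrane, rose by 1.57 (adjusted p = 0.00672, edgeR), from 0.272 to 0.495 FPKM to 0.807 to 1.84. TLR4, the receptor of calprotectin, had 0 reads in the parental libraries, 17 in CR, 169 and 86 in PR and 23 in DR (adjusted p = 0.00409, edgeR). Its level was low, at most 0.156 FPKM in any library. TLR4 passed the filter on low counts only through the drug-resistant libraries, so only a higher call was open to it. BSG, also in this list, rose by 0.80 (adjusted p = 0.00782, edgeR), from a mean of 231 FPKM to 432. EZR, the gene of ezrin, fell by 0.99 (adjusted p = 0.00282, edgeR). AGER stayed between 0.327 and 1.91 FPKM in all libraries and did not pass (adjusted p = 0.258, edgeR). The annexins ANXA2 (0.49, adjusted p = 0.1004, edgeR) and ANXA1 (-0.14, adjusted p = 0.622) did not pass either.

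Of 23 other EF-hand genes, 22 were tested, and 2 were higher, against 18.5% of all genes, and 4 lower, against 15.3%, with a median log2 fold change of -0.23. CALML4 fell by 1.79, CALM3, a calmodulin, fell by 1.52, and CETN3, a centrosomal centrin, fell by 1.06 on the log2 scale, whereas the calpain CAPN2 rose by 0.91 (adjusted p between 0.000269 and 0.00926, edgeR).

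Of 19 other genes around the S100 genes in 1q21.3, 16 were tested. Of these, 1 rose, against 18.5% of all genes, and 2 fell, against 15.3%. SLC27A3, a fatty acid transporter, rose by 2.08 on the log2 scale (adjusted p = 0.0188, edgeR), and MRPL9 and ILF2 fell by 0.96 and 0.98 (adjusted p = 0.00525 and 0.00607). The median of the 16 was -0.03, against 0.06 for all genes and 0.69 for the 8 tested S100 members.

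**Figure D4:**
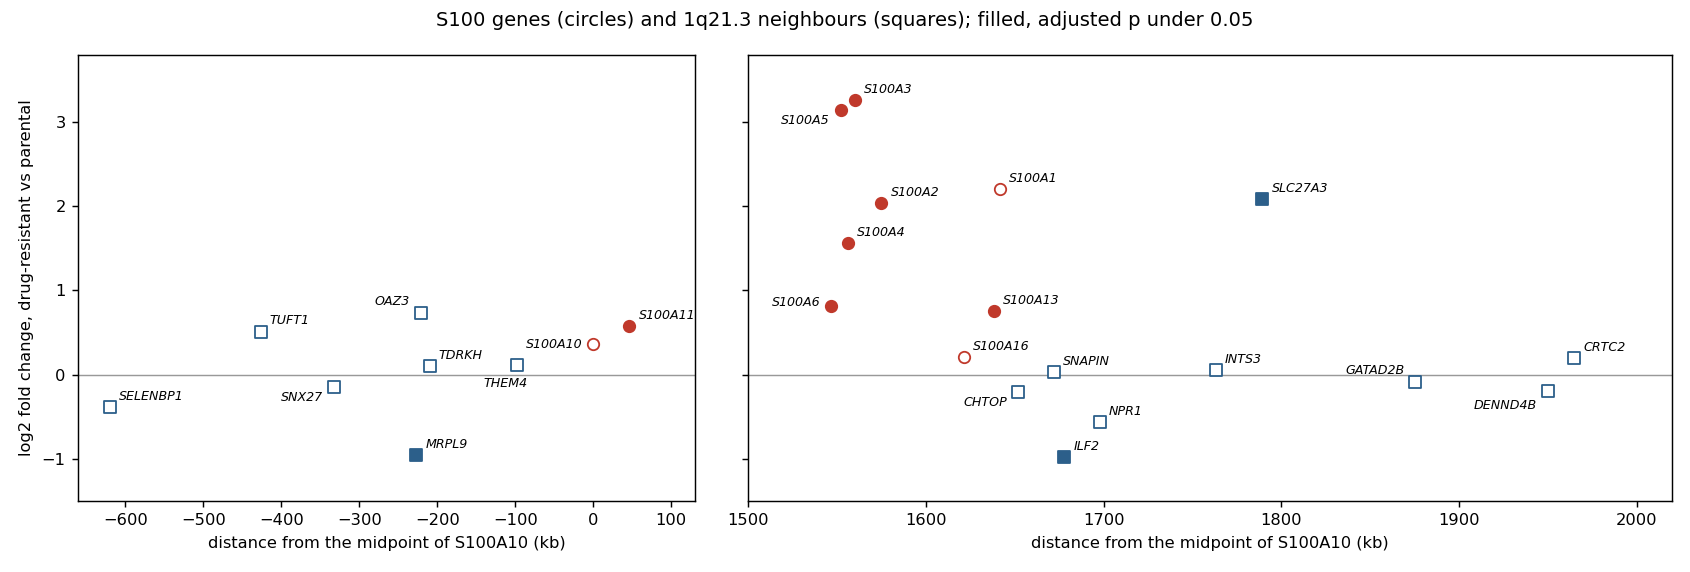
Log2 fold change of drug-resistant over parental cells (y axis) against the distance of each gene's midpoint from that of S100A10 in kb (x axis, in 2 stretches), for S100 genes (circles) and other genes of 1q21.3 (squares), with filled symbols where the adjusted p is under 0.05. S100A6, S100A5, S100A4, S100A3 and S100A2 are all filled and above 0, and of the 16 other genes SLC27A3 is filled above 0 and MRPL9 and ILF2 below 0.

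The genes whose log2 CPM followed each S100 gene most closely over the 10 libraries were listed as a description. The 10 libraries share 2 cell lines and one parental control, so these values of Pearson's r carry no p. S100P was closest to FOXA1 (r = 0.972), which had 13.97 to 19.86 FPKM in every library except A549 2D, with 2.27. It was followed by TSPAN8 (0.958), with 0.0235 FPKM in A549 2D and 116 in A549 TS, and ST3GAL1 (0.95), with 2.57 and 26.1. All 3 thus had their lowest value in A549 2D, like S100P.

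S100A4 was closest to TMEM45A (r = 0.978) and TP53TG1 (0.975), and S100A16 to RASSF7 (0.988), which had 1.08 to 1.82 FPKM in H460 and 12.8 and 26.9 in A549. S100A3 was closest to ZNF396 (0.99) and S100A2 to ZKSCAN5 (0.982). S100A11 was closest to SSR4 (0.954), S100A10 to DAP (0.959) and S100A6 to TEN1 (0.955). S100A8 and S100A9 were closest to GPR85 (0.955) and SPINK13 (0.954), which reached at most 0.121 and 0.356 FPKM. Among the 10 genes themselves, S100A4 and S100A6 had r = 0.908, S100A4 and S100A11 had 0.892, S100A8 and S100A9 had 0.777, and S100A4 and S100A16 had -0.37.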

How the data were processed

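The authors sequenced poly(A) RNA in 10 libraries (Illumina TruSeq). The submitters' processing notes name bcl2fastq 1.8.4, Trimmomatic, HISAT2 2.1.0, StringTie 2.1.3b and GRCh38, with no roles. The authors deposited whole-number read counts per gene without normalization, FPKM values scaled to transcript length and library size, and TPM values on the same basis, which were not used further here. In every library fewer genes had 1 read than 2, so a count may not be 1 independent read.

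Counts were tested with edgeR 4.0.16 (TMM, filterByExpr, quasi-likelihood F-test, R 4.3.3), with Benjamini-Hochberg adjustment over all genes tested and a threshold of 0.05. SEs were derived from the fold change and F. Single libraries were compared on log2 CPM (prior count 2) over 22464 genes. FPKM gave the levels. The fit of the difference between the lines in TS effect was added after seeing the data. Alternatives were DESeq2 1.42.0 (size factors, test), upper-quartile factors, no filter, a filter of 1 FPKM in 2 libraries, limma 3.58.1 on log2(FPKM + 1), each library left out, the form of library name as a term, a replicate block, and pseudocounts of 1 and 0.1 FPKM for single libraries. A count of 0 was floored at 3 reads per library. The fits were tested on simulated data.

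The 10 S100 genes are all named. Of the other lists, members past the threshold are named, at most the 4 with the largest change, and genes described for their role in S100 binding. Genes and lists were chosen with earlier results of these data known. Gene positions and promoter windows come from RefSeq (GRCh38.p14), which matched all 10 genes. Other computing was done in Python 3.11.15 (scipy 1.17.1, pandas 2.3.3, numpy 2.4.6), and plots were made in matplotlib 3.10.9.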

Additional observations from a re-analysis of the deposited data

Results flagged for a closer look

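In the drug-resistant libraries, S100A6 had 1 library far from the others: PR replicate 1, with 1623 FPKM against 3101 to 3257 in the other 3. Its gap to the nearest library was 0.905 of the group's range, above Dixon's 95% critical value for 4 samples. Chance alone gives such a gap in about 1 of 20 groups, and 10 genes were looked at.

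The TS difference in S100P was larger in A549 than in H460 by 4.26 on the log2 scale, and the interaction was past the threshold (adjusted p = 0.0334, edgeR). It rests on 1 library each of A549 2D, A549 TS and H460 TS.

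For 3 other genes the H460 TS library was below every parental library while the A549 TS library was above A549 2D. The log2 CPM difference in A549 minus that in H460 was 3.15 for S100A4, 1.39 for S100A6 and 1.02 for S100A10. The interaction did not pass in edgeR for any of the 3, with adjusted p of 0.126, 0.563 and 0.787.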

How the results depend on the processing

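S100A2, S100A3 and S100A4 in drug-resistant cells and S100A3 and S100A16 between the lines kept their direction and their call in every setting run. Of 527 values of S100 genes in alternative fits, 455 kept direction and side of the threshold, 27 lost the call, 10 gained it and 35 changed sign, the last all in values that had not passed. The genes called in drug-resistant cells were 3397 higher and 2823 lower, and 4210 and 2032 with upper-quartile factors, which moved the median over all genes, on the log2 scale, from 0.06 to 0.23 and, in PR, from 0.05 to 0.30, with 4252 higher and 1347 lower in place of 3391 and 2064.

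The genes called in PR numbered 5455, 2742 with the FPKM filter, 3026 by limma, and 950 (without PR replicate 2) to 6661 with 1 library left out. For TS they numbered 35, 19 with the FPKM filter, 537 by DESeq2, and 6 (without parental replicate 2) to 322 (without A549 TS). Between the lines they numbered 4384, 2843 with the FPKM filter, and 2359 to 3905. For the difference in TS effect they numbered 87, 0 without a filter on low counts (1637 at an unadjusted p under 0.05), 539 by DESeq2, 27 by limma, and 116 to 656. That fit could not be made without H460 TS, A549 2D or A549 TS. In drug-resistant cells the range was 4215 to 6585. Genes more than 2-fold apart were 6491 in CR, 7015 in DR, 3915 in H460 TS and 5469 in A549 TS on log2 CPM. They were 1632, 1447, 483 and 1226 on log2(FPKM + 1), and 3689, 3586, 1601 and 3085 on log2(FPKM + 0.1). The cause was not tested.

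The log2 fold change of S100P in drug-resistant cells changed sign to 0.16 with upper-quartile factors, 0.0827 with the FPKM filter, 0.10 by limma and 0.00337 with the form of library name, and ran from -0.18 to 0.0572 with 1 library left out. That of S100A16 became -0.11 with the form. In PR, S100A16 became 0.18, 0.11 and 0.10 and S100P 0.15, 0.0745 and 0.14 with upper-quartile factors, the FPKM filter and limma. With 1 library left out, the PR values ran from -0.50 to 0.27 for S100A16, -0.29 to 0.0647 for S100P, -0.0545 to 0.81 for S100A6 and -0.00958 to 0.16 for S100A10. The TS values then ran from -1.48 to 1.69 for S100A4, -0.75 to 0.62 for S100A6, -0.27 to 0.73 for S100A10 and -0.24 to 4.02 for S100P. Between the lines, S100A11 became -0.00933 with upper-quartile factors, and with 1 library left out S100A11 ran from -0.10 to 0.18, S100A6 from -0.18 to 1.21, S100A2 from -0.0146 to 0.35, S100A4 from -1.73 to 1.47 and S100P from -3.58 to 0.69.

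PR and parental libraries share the replicate numbers 1 and 2, and no label says that a number pairs them. The deviations of same-numbered libraries had r = 0.0555 over 22464 genes. With the replicate as a block, 6098 genes were called in PR against 6661 in the same 4 libraries without it (the fit without parental replicate 3), and S100A4 passed with it (adjusted p = 0.0136, edgeR) but not in those 4 libraries without it (0.0807). The 5 S100 genes called with the block were those called in all 5 libraries. S100A8 and S100A9 had at most 35 and 128 reads in a library, and their PR calls were also lost without PR replicate 1.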
